A study of Mus musculus with 4 samples.

Results

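The 10 genes described here encode the neuropeptides by which GABAergic interneurons of the cortex are commonly told apart, together with 1 protein that binds such a peptide. They are Sst, Vip, Npy, Cck, Tac1, Tac2, Crh, Cort, Pthlh and Crhbp. All 10 were found by symbol among the 33696 genes of the deposited matrices, under the Ensembl identifiers ENSMUSG00000004366 (Sst), ENSMUSG00000019772 (Vip), ENSMUSG00000029819 (Npy), ENSMUSG00000032532 (Cck), ENSMUSG00000061762 (Tac1), ENSMUSG00000025400 (Tac2), ENSMUSG00000049796 (Crh), ENSMUSG00000028971 (Cort), ENSMUSG00000048776 (Pthlh) and ENSMUSG00000021680 (Crhbp). The rule that names them uses no measured value, although earlier results of these data were known when they were chosen. Single nuclei were taken from microdissected cortex of wild-type C57BL/6JRj female mice of about 12 weeks, 2 pregnant mice at stage E13.5 of gestation and 2 non-pregnant control mice. The labels call the mice of a group biological replicates, and all 4 tissues were handled in actinomycin D, an inhibitor of transcription, and sequenced as 1 pool. Neither the area of cortex nor the day of dissection is given in the sources used here. At issue was whether the peptide genes of cortical interneurons differed between pregnant and non-pregnant cortex, in how many nuclei held them, at what level and in which combinations.

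Neuropeptides are made as long precursors, cut by convertases in the secretory pathway and released from dense-core vesicles to act on receptors coupled to G proteins. Most cortical interneurons fall into a few families named after a marker. Those named after Pvalb and Sst come from the medial ganglionic eminence and depend on the transcription factor Lhx6, while those named after Vip, Lamp5 and Sncg come mostly from the caudal eminence and express Adarb2. Sst encodes somatostatin, which inhibits its target cells, and Cort encodes cortistatin, a related peptide that acts on the same receptors. Npy encodes neuropeptide Y, a mostly inhibitory peptide. Vip encodes vasoactive intestinal peptide, and interneurons that make it largely inhibit other interneurons. Cck encodes cholecystokinin, which is made by a set of interneurons and also by many excitatory neurons. Tac1 encodes substance P and neurokinin A, Tac2 encodes neurokinin B, and Pthlh encodes parathyroid hormone-related protein. Crh encodes corticotropin-releasing hormone, and Crhbp encodes a secreted protein that binds and sequesters it.

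The 4 libraries held 26816 barcodes, between 6357 and 6932 each, with 97875766 to 116860425 molecular identifiers (UMIs, which count captured RNA molecules) per library. After filtering, 25033 nuclei were kept. Any 2 libraries shared 20 to 31 barcodes. A total of 42 clusters were built and named with the 10 genes left out, and a name such as Sst-like means only that a cluster resembled that type by markers other than these genes. Some nuclei stood apart by group: clusters 15, 20, 22, 31 and 35 held 822 and 759 nuclei in pregnant replicates 1 and 2, against 27 and 0 in non-pregnant replicates 1 and 2. They were kept out of the named types. Sums over all nuclei still hold them, and sums over excitatory nuclei hold clusters 15, 20, 22 and 35, so these sums differ in make-up between the groups. A further cluster, number 16, had a median of only 1325 UMIs per nucleus and held 114 and 421 nuclei in the pregnant replicates, against 46 and 46 in the non-pregnant ones. Hbb-bs, a haemoglobin gene, led it, and Sst was among its leading genes.

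Interneurons were taken in a way that needs no cluster, as nuclei with at least 3 UMIs of Gad1 and Gad2 together, the genes for the enzymes that make GABA. This gate held 2513 nuclei, 625 and 628 in pregnant replicates 1 and 2, against 679 and 581 in non-pregnant replicates 1 and 2. It took in 84.6% to 87.9% of the nuclei in inhibitory clusters of each library. All Lamp5-like nuclei were in it. Of Vip-like nuclei it held 70 of 99 and 92 of 129 in the pregnant replicates, against 114 of 150 and 74 of 109. Gated values thus under-represent Vip-like nuclei. Excitatory nuclei made up 1.44% and 3.98% of the gate, against 1.62% and 0.34%, and nuclei of no class 2.56% and 3.5%, against 3.53% and 0.86%. Median depth in the gate was 14317 and 13575 UMIs per nucleus in the pregnant replicates, against 12082 and 16174 in the non-pregnant ones. Levels are given as CPM, counts per 1000000 UMIs of all genes over the summed nuclei of 1 library. Since 3' ends were counted, CPM was not scaled to transcript length, and levels are compared between cell types for 1 gene rather than between genes.

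Several peptide genes are textbook targets of the transcription factor CREB, whose site was first described in the somatostatin promoter. For that reason the 250 bases before the transcription start, as RefSeq gives them for GRCm38.p6, are shown for Sst, Vip and Npy, which are highest in separate cell types below, and for Crhbp, which shares its highest type with Sst. The matrices themselves were made on GRCm39, and the sequences were matched by symbol. Of the 10 genes, 9 had an entry. Capitals mark the cyclic AMP response element TGACGTCA and its half-site TGACG, searched on both strands, so that the half-site can also read CGTCA, and a full site holds 2 overlapping half-sites.
Sst: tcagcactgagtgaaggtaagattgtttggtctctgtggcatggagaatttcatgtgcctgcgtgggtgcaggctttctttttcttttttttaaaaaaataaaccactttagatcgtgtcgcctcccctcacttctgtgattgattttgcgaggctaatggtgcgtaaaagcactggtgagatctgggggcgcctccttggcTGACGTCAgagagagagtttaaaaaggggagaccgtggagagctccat
Vip: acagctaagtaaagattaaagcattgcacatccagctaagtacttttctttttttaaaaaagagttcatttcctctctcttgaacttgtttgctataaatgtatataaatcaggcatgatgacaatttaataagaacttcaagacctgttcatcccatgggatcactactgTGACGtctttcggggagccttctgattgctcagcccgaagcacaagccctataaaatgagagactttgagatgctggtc
Npy: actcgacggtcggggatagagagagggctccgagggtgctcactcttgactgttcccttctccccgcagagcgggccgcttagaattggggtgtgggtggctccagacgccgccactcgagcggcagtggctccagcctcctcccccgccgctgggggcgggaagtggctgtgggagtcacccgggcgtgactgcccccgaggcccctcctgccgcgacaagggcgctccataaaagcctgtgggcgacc
Crhbp: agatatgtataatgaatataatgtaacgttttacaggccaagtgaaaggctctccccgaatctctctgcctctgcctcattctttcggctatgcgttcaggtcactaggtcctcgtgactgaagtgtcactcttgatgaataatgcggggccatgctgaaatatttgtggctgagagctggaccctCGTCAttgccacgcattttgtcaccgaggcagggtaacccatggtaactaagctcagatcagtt
These windows lie at chr16:23890845-23891094 on the minus strand for Sst, chr10:5638968-5639217 on the plus strand for Vip, chr6:49822460-49822709 on the plus strand for Npy and chr13:95444832-95445081 on the minus strand for Crhbp. The full site was found in 1 of the 9 genes, Sst, where it begins 48 bases before the start, and in 1.55% of 32851 mouse promoter windows of the same length. The half-site was found in 6 of the 9 (Sst, Vip, Cck, Tac1, Crhbp and Cort), against 17.77% of all windows. A match describes these letters and is not a measured binding site.

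Among named cell types, 9 of the 10 genes were highest in a class of interneuron. Vip was read at 768 ± 173 CPM in Vip-like nuclei (SD over the 4 libraries here and below), where 85.2% of nuclei held at least 1 UMI. These nuclei made up 1.95% of all kept nuclei and held 53.7% of all Vip UMIs. Next came the inhibitory cluster 26, with 130 ± 54.9 CPM, which was led by Adarb2 and Reln and scored best for Sncg markers but stayed unnamed. The lowest Vip-like library, at 576 CPM, lay above the highest of cluster 26, at 208 CPM.

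Crh, Tac2 and Pthlh were also highest in Vip-like nuclei. Crh was read there at 66.5 ± 39.4 CPM and in 29.6% of nuclei. Tac2 reached 30.0 ± 3.27 CPM in Vip-like nuclei and 12.7 ± 6.37 CPM in cluster 26. Pthlh reached 15.1 ± 3.42 CPM in Vip-like nuclei and 2.47 ± 0.686 CPM in Pvalb-like nuclei. For Tac2 and Pthlh the libraries of these pairs of types did not overlap.

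A second set was highest in Sst-like or Pvalb-like nuclei. Sst was read at 92.5 ± 23.3 CPM in Sst-like nuclei, 63.5% of which held it. Crhbp reached 50.6 ± 15.1 CPM in Sst-like nuclei and 21.4 ± 1.95 CPM in Pvalb-like nuclei, and the gate held 72.0% of its UMIs in 10.04% of the nuclei. Tac1 was highest in Pvalb-like nuclei, with 21.6 ± 7.02 CPM, against 2.02 ± 0.705 CPM in Sst-like nuclei. Cort was read at 18.5 ± 10.5 CPM in Pvalb-like nuclei and 10.1 ± 8.10 CPM in Sst-like nuclei. These 2 means of Cort lie within the spread of the libraries, but Pvalb-like nuclei had the higher level in every library.

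Npy was the gene of Lamp5-like nuclei, with 197 ± 44.5 CPM and 81.8% of nuclei positive. Sst-like nuclei followed with 56.0 ± 24.4 CPM and cluster 26 with 50.8 ± 15.4 CPM, 2 levels within their spread. Pvalb-like and Vip-like nuclei held 15.5 and 17.7 CPM of Npy on average.

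**Figure D1:**
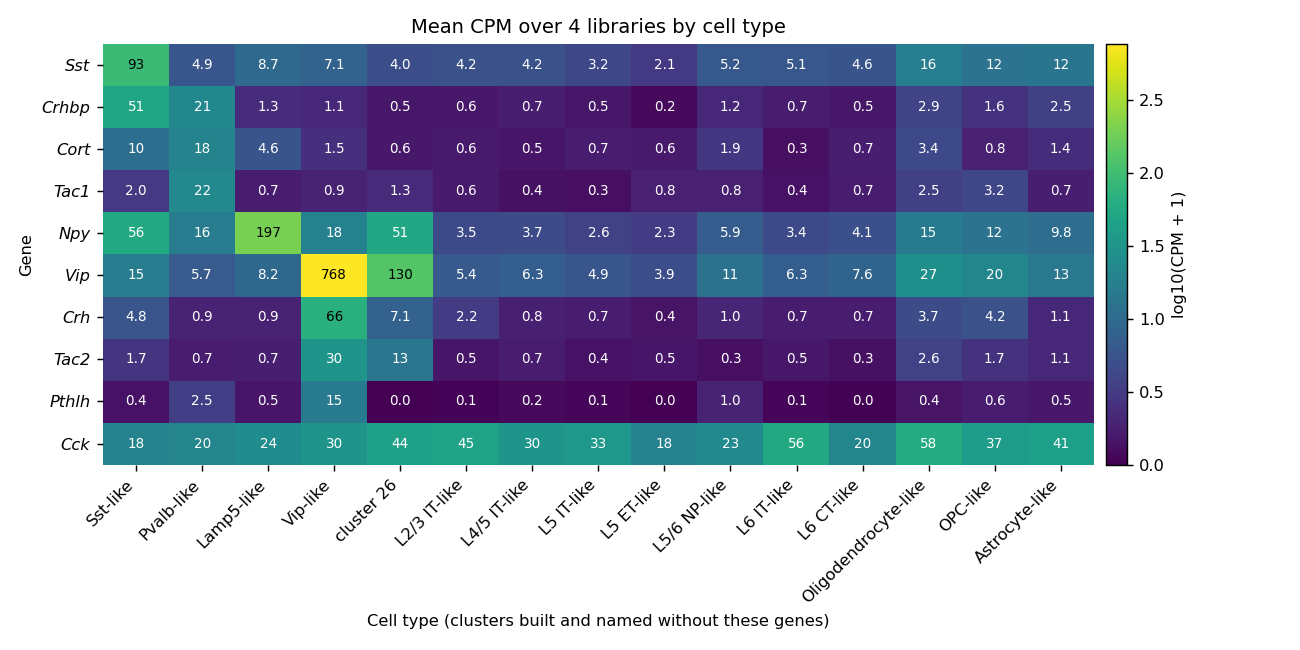
Mean level of each gene over the 4 libraries (number in each cell, CPM; colour, log10 of CPM + 1) in named cell types, which run along the horizontal axis, and in the unnamed inhibitory cluster 26. Vip, Crh, Tac2 and Pthlh peak in Vip-like nuclei, Sst and Crhbp in Sst-like, Cort and Tac1 in Pvalb-like and Npy in Lamp5-like nuclei, while Cck is spread over excitatory and glial types.

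Cck was not enriched in the gate. Excitatory nuclei held 82.3% of its UMIs and the gate 6.53%, beside 82.5% and 10.4% of the UMIs of all genes. Its level in excitatory nuclei, 37.3 CPM, was close to that of all nuclei, 37.4 CPM, and the gate lay below both. In inhibitory clusters it was highest in cluster 26, at 44.9 and 49.2 CPM in pregnant replicates 1 and 2, against 52.6 and 28.9 CPM in non-pregnant replicates 1 and 2. Among excitatory types L6 IT-like nuclei had most, with 56.2 ± 13.3 CPM. However, oligodendrocyte-like nuclei, which should lack the gene, held 58.2 ± 24.0 CPM. Thinned to 3000 UMIs per nucleus, 13.6% and 24.5% of oligodendrocyte-like nuclei held Cck in the pregnant replicates, against 17.1% and 8.44% in the non-pregnant ones. In gated nuclei thinned in the same way the shares were 5.62% and 8.31%, against 6.64% and 5.34%. Cck in gated nuclei was therefore not above the reading in oligodendrocyte-like nuclei, in CPM or in thinned shares. Gated nuclei were deeper, and UMIs per nucleus were not compared.

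For the other genes the same reading of glia gives a comparison in CPM and thinned shares, not a floor per nucleus. At 3000 UMIs, Sst was in 4.73% and 5.44% of oligodendrocyte-like nuclei of the pregnant replicates, against 2.96% and 1.24% in the non-pregnant ones, beside 7.71% and 9.43%, against 6.05% and 6.02%, of gated nuclei. Vip was in 3.55% and 11.2% of oligodendrocyte-like nuclei, against 10.2% and 4.96%. Thinning left out 63 to 189 oligodendrocyte-like nuclei and 0 to 2 gated nuclei per library as too shallow. Before thinning, median depth was 3251 to 4256.5 UMIs in oligodendrocyte-like nuclei. In CPM, the gate stood 1.64-fold above oligodendrocyte-like nuclei for Sst, 1.70-fold for Tac2 and 7.24-fold for Crhbp, with 2.65-fold to 6.26-fold for Crh, Cort, Vip, Npy, Tac1 and Pthlh, and 0.398-fold for Cck. Mean levels, in CPM, of Sst and Vip in the 7 excitatory types tested lay below those in oligodendrocyte-like nuclei. They may be background, but UMIs per nucleus were not compared.

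Divided further, the inhibitory nuclei gave 23 sub-clusters, again built without the 10 genes, in which peptides parted within a type. This division was chosen after the data were seen. Values here are CPM over the pooled nuclei of the 4 libraries. Among Vip-like nuclei, a sub-cluster of 129 nuclei led by Wnt5b and Chat, the gene for the enzyme that makes acetylcholine, held Vip at 875 CPM (libraries 523 to 1201) and Pthlh at 29.5 CPM (21.4 to 37.3) but Crh at only 2.95 CPM (0 to 9.41). A sub-cluster of 103 nuclei led by Col15a1 held Vip at 1100 CPM (707 to 1582), Crh at 133 CPM (57.8 to 218) and Tac2 at 44.7 CPM (24.8 to 70.5). In 78 nuclei led by Thsd7b, Crh stood at 92.7 CPM (43.8 to 126) while Vip was at 125 CPM (63.2 to 218). Tac2 stood at 62.9 CPM (52.4 to 72.5) in 124 nuclei led by Vwc2l.

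Sst-like sub-clusters differed in what accompanied Sst. In 124 nuclei led by Gpc5, Sst reached 156 CPM (libraries 125 to 221) with Crhbp at 86.4 CPM (24.5 to 120) and Npy at 81.3 CPM (31.9 to 228). In 99 nuclei led by Plpp4, Sst reached 106 CPM (28.3 to 147) with Crhbp at 8.16 CPM (4.04 to 14.7). A sub-cluster of 52 nuclei led by Pard3b held Crh at 38.8 CPM (23.5 to 52.6). The smallest, 13 nuclei led by Nos1 and with Chodl at 108 CPM, held Npy at 256 CPM (libraries 134 to 426) and Crhbp at 108 CPM, on 2 to 5 nuclei a library. Nos1 and Chodl mark the long-range Sst neurons of cortex. Another 2 of the 23 sub-clusters also held Slc17a7, an excitatory marker, at 170 and 151 CPM, and are not described.

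Pvalb-like nuclei parted by Tac1 and Cort. In 319 nuclei led by Ntng1, Cort stood at 39.2 CPM (libraries 21.8 to 69.4), Npy at 33.4 CPM (27.0 to 45.3) and Tac1 at 28.5 CPM (13.48 to 44.5). In 285 nuclei led by Syt2, Cort was at 2.74 CPM (0 to 7.91) and Tac1 at 1.37 CPM (0.59 to 3.51). Tac1 stood at 36.4 CPM (26.7 to 54.0) in 184 nuclei led by Irag1. Npy stood at 244.5 CPM (libraries 146 to 301) in 197 nuclei led by Pde11a, 99.5% of them Lamp5-like. It stood at 113 CPM (89.4 to 138) in 151 nuclei led by Ndnf, of which 61.6% were Lamp5-like. Of the unnamed inhibitory nuclei, 75 led by Cadps2, with the cannabinoid receptor gene Cnr1 at 1536 CPM, held Vip at 403 CPM (253 to 717) and Cck at 83.6 CPM (67.8 to 103).

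Most gated nuclei held at least 1 of the 10 genes. None was read in 20.32% and 14.97% of gated nuclei in pregnant replicates 1 and 2, against 15.02% and 23.75% in non-pregnant replicates 1 and 2. At least 2 were read in 47.4% and 54.1%, against 51.6% and 41.0%. The groups overlapped in both shares. Vip was read deeply where it was read, with a mean of 6.31 and 7.09 UMIs per positive nucleus in the pregnant replicates, against 7.12 and 5.19 in the non-pregnant ones. Sst gave 1.99 and 2.17 UMIs per positive nucleus, against 1.86 and 1.71. For Sst, 95 of 161 and 85 of 156 positive nuclei of the pregnant replicates, against 75 of 124 and 56 of 93 of the non-pregnant ones, held a single UMI.

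Which genes shared a nucleus was measured over all 45 pairs, as the number of gated nuclei with both, divided by the number expected from the 2 shares in each library. The ratio was above 1 in 19 pairs. Among the 34 pairs with at least 20 expected nuclei, the highest was Vip with Tac2, with 86 nuclei against 25.1 expected (ratio 3.42). Next came Vip with Crh, with 122 against 42.1 (2.90), and Tac1 with Cort, with 66 against 25.9 (2.55). Crhbp with Cort followed, with 103 against 54.3 (1.90), and Sst with Crhbp, with 205 against 109.9 (1.86). The lowest were Tac2 with Crhbp, 5 against 23.3 (0.215), Crh with Crhbp, 8 against 37.1 (0.216), and Vip with Tac1, 14 against 51.0 (0.274). Crh and the protein that binds it were thus read mostly in separate nuclei.

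For the 8 pairs above, without thinning, the ratio was on the same side of 1 in every mouse. With each nucleus thinned to 5000 UMIs the pooled ratios kept their side of 1, but Crh with Crhbp, at 0.381 on 4 nuclei, ran from 0 to 2.01 over the mice. Vip with Crh gave 2.58 and 3.12 in pregnant replicates 1 and 2, against 2.77 and 3.02 in non-pregnant replicates 1 and 2. Sst with Crhbp gave 1.85 and 1.75, against 2.12 and 1.79. Crh with Crhbp gave 0.185 and 0.096, against 0.154 and 0.481. The groups overlapped in all 3 of these pairs. Tac1 with Cort gave 2.67 and 2.94, against 2.66 and 1.515, the last on 6 nuclei with 3.96 expected. Among pairs picked after their values were seen, Sst with Npy shared 221 nuclei against 169 expected, and Sst with Cort 45 against 57.1.

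**Figure D2:**
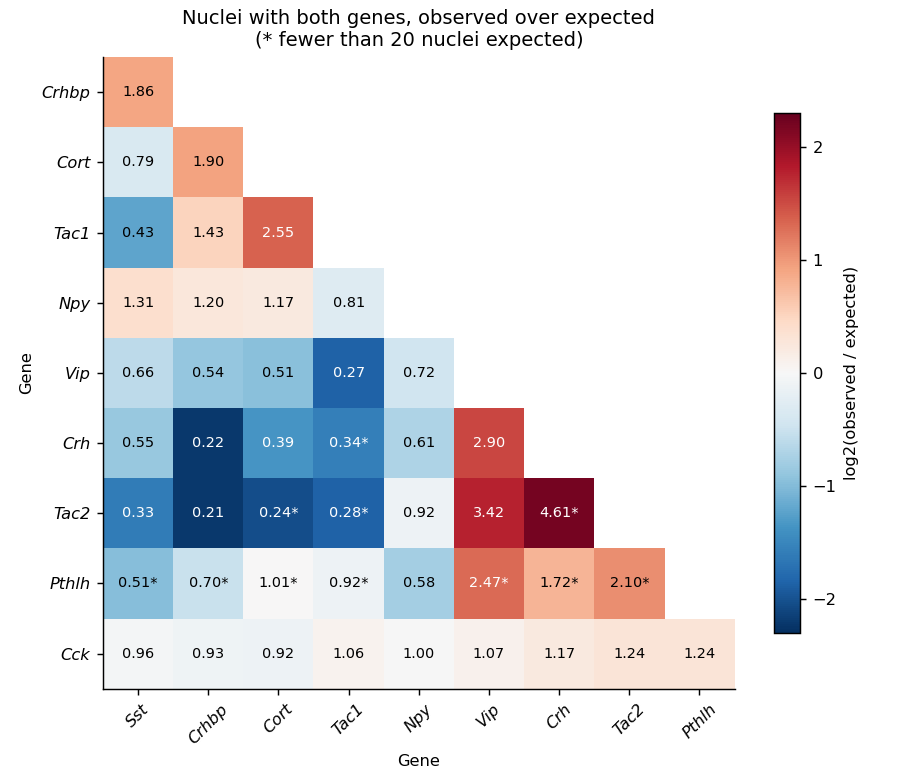
Number of gated nuclei with at least 1 UMI of both genes over the number expected from the 2 shares, summed over the 4 libraries (printed ratio; colour, its log2), for the 45 pairs of genes on the 2 axes. Red cells join Vip, Crh and Tac2, and join Crhbp with Sst and Cort and, more weakly, with Tac1 and Npy, while cells that join Vip, Crh or Tac2 with Sst, Crhbp, Cort or Tac1 are blue, as is Sst with Cort and with Tac1. At equal depth Crhbp with Tac1 has a ratio of 0.90. Asterisks mark pairs with fewer than 20 expected nuclei.

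Before the groups are compared, the mice within a group have to be. All 10 genes were higher in non-pregnant replicate 1 than in non-pregnant replicate 2 over all kept nuclei, with a median log2 ratio of 1.04. Over all 20899 genes tested the median size of that log2 ratio was 0.138, and 47.9% of genes were higher in replicate 1. In gated nuclei all 10 were again higher in replicate 1, beside 54.4% of all genes tested there. They ran from 1.22-fold for Crhbp and 1.35-fold for Tac2 to 2.28-fold for Crh and 3.03-fold for Cort. The pregnant mice differed the other way: 2 of 10 genes were higher in replicate 1 than in replicate 2 in gated nuclei, with a median log2 ratio of -0.30. All 15124 genes tested there leaned the same way. Of them, 35.4% were higher in pregnant replicate 1, with a median log2 ratio of -0.077, so the count of 2 is not particular to these genes.

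The gap between the non-pregnant mice was not held to interneurons. The 10 genes summed to 207 and 260.5 CPM in gated nuclei of the pregnant replicates, against 334 and 174 CPM in the non-pregnant ones. In oligodendrocyte-like nuclei they summed to 114 and 174 CPM, against 160 and 75.5 CPM, and in excitatory nuclei to 50.5 and 65.6 CPM, against 68.4 and 35.3 CPM. In each of these sets non-pregnant replicate 2 was the lowest library. It was also the deepest, and the part of depth or of RNA read in glia in this gap was not tested.

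Over gated nuclei none of the 10 genes passed the test of pregnant against non-pregnant mice by edgeR (quasi-likelihood, adjusted by Benjamini-Hochberg over all genes). Of all 15124 genes tested there, 0.172% passed an adjusted p of 0.05. Of the 10, only Sst had an unadjusted p below 0.05 by edgeR and also by DESeq2, which called none either. Sst was likewise the only 1 of the 10 whose groups did not overlap, against 36.4% of all genes tested. In a sum over nuclei, more nuclei with a gene and more RNA of it per nucleus cannot be told apart.

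Sst stood at 31.6 and 32.9 CPM in gated nuclei of pregnant replicates 1 and 2, against 24.8 and 15.8 CPM in non-pregnant replicates 1 and 2. Both pregnant mice lay above both non-pregnant mice. As a log2 fold change, pregnant over non-pregnant, this was 0.68 with a standard error (SE) of 0.17, a 95% interval of 0.29 to 1.07 and an adjusted p of 0.303 by edgeR. Leaving out 1 library moved that adjusted p, by edgeR, to 0.0133 without pregnant replicate 1, 0.00999 without pregnant replicate 2, 5.74e-08 without non-pregnant replicate 1 and 0.333 without non-pregnant replicate 2. In the order of these 4 fits, 0.703%, 0.728%, 3.75% and 0.79% of all genes were called. Each of these fits assumes that the lone library of a group varies as the other pair does. With a gate of at least 5 UMIs it was 0.0483.

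Vip stood at 63.0 and 97.4 CPM in gated nuclei of the pregnant replicates, against 134 and 61.6 CPM in the non-pregnant ones. The non-pregnant mice enclosed both pregnant mice, and the log2 fold change of -0.28 had a 95% interval of -2.56 to 1.99. Crh showed 4.25 and 9.84 CPM, against 17.4 and 7.58 CPM, with a log2 fold change of -0.81 (95% interval -3.22 to 1.60). Cort showed 8.50 and 9.35 CPM, against 18.0 and 5.88 CPM, with a log2 fold change of -0.40 (-2.79 to 1.99). The intervals of these 3 genes reach well to both sides of 0, so no direction can be read from them. Without non-pregnant replicate 2, where 0.79% of all genes were called, edgeR called Vip (log2 fold change -0.74), Crh (-1.29) and Cort (-0.999), and without pregnant replicate 2 it called Crh (-1.501).

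Npy and Tac1 were also enclosed by the non-pregnant mice. Npy had 41.0 and 44.7 CPM in gated nuclei of the pregnant replicates, against 68.5 and 38.0 CPM in the non-pregnant ones (log2 fold change -0.30, 95% interval -1.51 to 0.91). Tac1 had 9.29 and 8.96 CPM, against 12.9 and 6.08 CPM (-0.04, -0.80 to 0.72). The narrowest interval belonged to Crhbp, with 23.7 and 18.9 CPM, against 22.2 and 18.1 CPM, and a log2 fold change of 0.09 (-0.24 to 0.42). For Cck, Tac2 and Pthlh the groups overlapped as well, and their log2 fold changes were 0.28, -0.33 and 0.19. Without non-pregnant replicate 2 edgeR called Npy (-0.66), beside 0.79% of all genes, and without non-pregnant replicate 1 it called Cck (0.76), beside 3.75%.

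**Figure D3:**
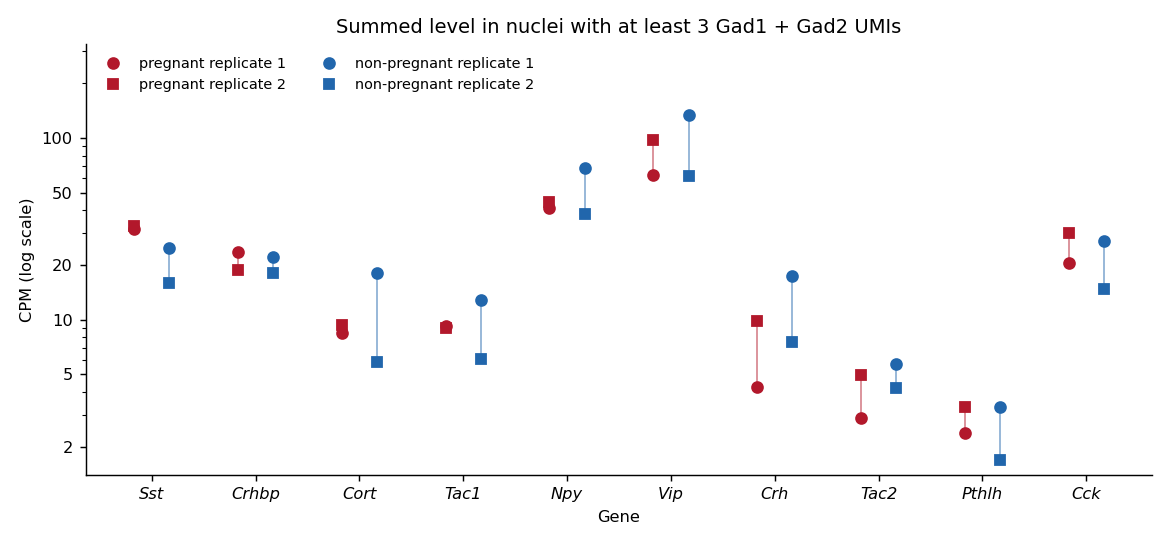
Level of each gene in gated nuclei of each library (vertical axis, CPM on a log scale), with the 2 pregnant mice in red left of the 2 non-pregnant mice in blue, circles for replicate 1 and squares for replicate 2, and lines joining mice of a group. The non-pregnant pair is the wider one for 7 of the genes shown and encloses or overlaps the pregnant pair for all but Sst.

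Over all kept nuclei, none of the 10 genes was called by edgeR or by DESeq2, none had an unadjusted p below 0.05 by either, and 1.16% of all 20899 genes were called by edgeR. Sst was at 8.56 and 11.1 CPM in the pregnant replicates, against 7.61 and 3.86 CPM in the non-pregnant ones, with a log2 fold change of 0.76 (95% interval -0.32 to 1.85, adjusted p 0.553 by edgeR). It was the only 1 of the 10 without overlap, against 40.1% of all genes. With the unnamed clusters left out, the log2 fold change of Sst was 0.78 (-0.26 to 1.82, adjusted p 0.475 by edgeR). Without non-pregnant replicate 1, edgeR called 6 of the 10 genes (Cck, Cort, Crhbp, Npy, Sst and Tac1), and without non-pregnant replicate 2 it called 4 (Cort, Crh, Npy and Tac2). In these fits 8.67% and 6.29% of all genes were called.

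Within single interneuron types the number of nuclei of each type no longer enters, but the mix of sub-clusters still does. Among Pvalb-like nuclei, the sub-cluster led by Ntng1 held 61 and 61 nuclei in the pregnant replicates, against 105 and 92. The one led by Irag1 held 63 and 49, against 39 and 33. Among Sst-like nuclei, the one led by Gpc5 held 41 and 35, against 24 and 24. The one led by Hpse held 34 and 28, against 37 and 39. The part of this mix was not tested. Over these types, 25 combinations of a gene and a type passed the filter on low counts and none was called by edgeR or DESeq2. They were 4 genes in Lamp5-like, 8 in Pvalb-like, 7 in Sst-like and 6 in Vip-like nuclei. Of all genes tested, 0.107% were called in Lamp5-like, 0.636% in Pvalb-like, 0.228% in Sst-like and 0.0811% in Vip-like nuclei. Of the 25 combinations, 2 had an unadjusted p below 0.05 by edgeR, Sst in Pvalb-like and Vip in Sst-like nuclei, and 1, Vip in Sst-like nuclei, by DESeq2. Without non-pregnant replicate 1, edgeR called Cck, Cort, Crhbp and Sst in Sst-like nuclei, where it then called 1.63% of all genes. Without non-pregnant replicate 2, it called Cort in Pvalb-like, Npy in Sst-like and Crh in Vip-like nuclei, beside 0.716%, 0.346% and 0.0756% of all genes there.

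In Sst-like nuclei, Sst stood at 98.4 and 104 CPM in pregnant replicates 1 and 2, against 109 and 58.2 CPM in non-pregnant replicates 1 and 2. Non-pregnant replicate 1 was the highest of all 4 mice, so the groups overlapped. The log2 fold change was 0.30 (95% interval -0.37 to 0.96, adjusted p 0.920 by edgeR). Sst was read in 68.6% and 65.3% of Sst-like nuclei in the pregnant replicates, against 62.9% and 55.6% in the non-pregnant ones.

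Sst-like nuclei made up 28.5% and 28.5% of inhibitory nuclei in the pregnant replicates (191 and 193 nuclei), against 21.4% and 23.6% in the non-pregnant ones (159 and 153). The groups did not overlap, and the log2 ratio was 0.34 with an SE of 0.14 (adjusted p 0.163 over 5 groups of inhibitory nuclei by edgeR). Of those 5 groups, 3 did not overlap: Lamp5-like nuclei made up 10.3% and 11.1% in the pregnant replicates, against 12.9% and 11.4%, and unnamed inhibitory nuclei 7.15% and 8.42%, against 10.4% and 8.64%. Without non-pregnant replicate 2 the ratio was 0.41 with an adjusted p of 0.0443 by edgeR. Pvalb-like nuclei made up 39.3% and 32.9%, against 35.0% and 39.5%, and Vip-like nuclei 14.8% and 19.1%, against 20.2% and 16.8%.

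In some sets outside Sst-like nuclei, low levels of Sst were also higher in the pregnant mice, while in Lamp5-like nuclei the groups overlapped. In Pvalb-like nuclei Sst stood at 6.02 and 6.60 CPM, against 4.98 and 2.13 CPM (log2 fold change 0.88, 95% interval 0.08 to 1.68, adjusted p 0.510 by edgeR). In excitatory nuclei, a sum that holds clusters 15, 20, 22 and 35, it stood at 4.75 and 6.10 CPM, against 4.17 and 2.07 CPM. In oligodendrocyte-like nuclei it stood at 20.5 and 21.5 CPM, against 15.4 and 6.70 CPM. Both pregnant mice were above both non-pregnant mice in each. The share of all genes without overlap was 36.9% in Pvalb-like and 41.2% in excitatory nuclei, and was not computed for oligodendrocyte-like nuclei. The share of Sst-like nuclei and the level of Sst in oligodendrocyte-like nuclei were thus higher in the pregnant mice, as was the gated sum of Sst. Between the non-pregnant mice the share ran the other way. Replicate 1 had the higher gated sum but the lower share, 21.4% against 23.6% in replicate 2. The part of the share and of glial RNA in the gated sum was not tested.

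**Figure D4:**
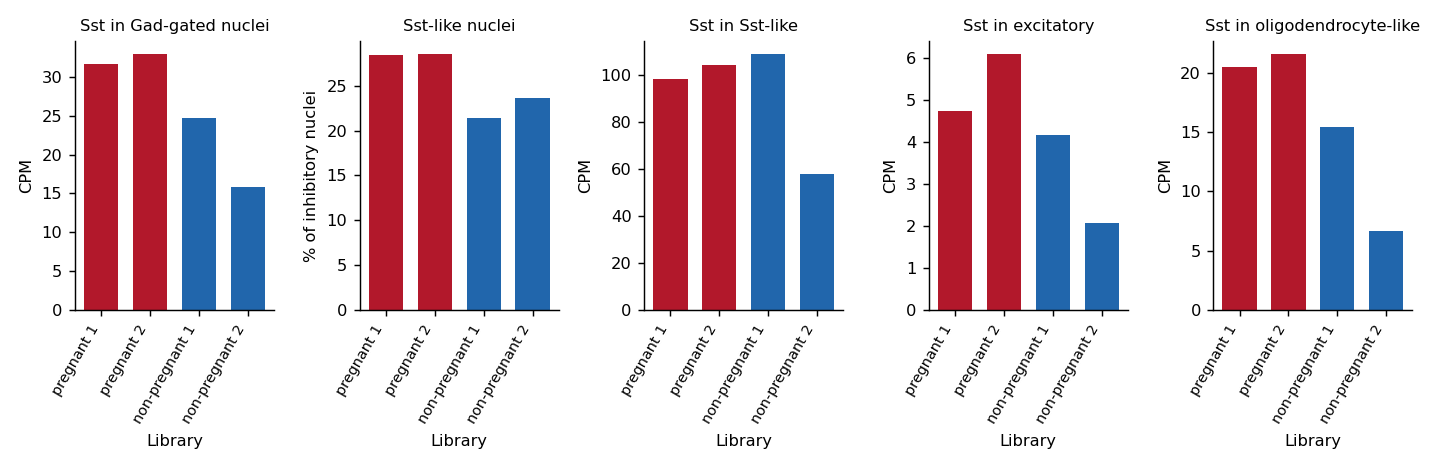
Sst by library, pregnant mice in red left of non-pregnant mice in blue: from left, CPM in gated nuclei, the percentage of inhibitory nuclei that were Sst-like, and CPM in Sst-like, excitatory and oligodendrocyte-like nuclei (each vertical axis starts at 0 and has its own scale). The pregnant bars are the higher pair in every panel except Sst-like nuclei, where non-pregnant replicate 1 is highest at 109 CPM.

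Vip in Vip-like nuclei stood at 729 and 774 CPM in pregnant replicates 1 and 2, against 995 and 576 CPM in non-pregnant replicates 1 and 2. The non-pregnant mice again enclosed the pregnant ones, with a log2 fold change of -0.07 (95% interval -0.50 to 0.35). Crh in Vip-like nuclei stood at 32.6 and 71.3 CPM, against 120 and 41.8 CPM. It was read in 14.1% and 34.9% of Vip-like nuclei, against 38.7% and 24.8%, so that pregnant replicate 1 was the lowest of the 4 mice. Tac2 in Vip-like nuclei stood at 27.4 and 34.5 CPM, against 27.8 and 30.2 CPM, with a log2 fold change of 0.09 (-0.44 to 0.63). Pthlh in Vip-like nuclei stood at 16.8 and 15.8 CPM, against 17.6 and 10.1 CPM. The groups overlapped for both genes.

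Vip in Sst-like nuclei was lower in both pregnant mice than in both non-pregnant mice, at 9.10 and 12.9 CPM, against 21.7 and 17.9 CPM. The log2 fold change was -0.84 (95% interval -1.39 to -0.30, unadjusted p 0.004, adjusted p 0.376 by edgeR). In each library these levels in CPM lie below those of oligodendrocyte-like nuclei, where Vip stood at 11.4 and 40.0 CPM, against 34.8 and 21.4 CPM. Sst-like nuclei were deeper, with a median of 13995 UMIs, and UMIs of Vip per nucleus were not compared. In Sst-like nuclei, 35.0% of all genes tested had groups without overlap.

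Npy in Lamp5-like nuclei stood at 190.5 and 205 CPM in the pregnant replicates, against 249 and 141 CPM in the non-pregnant ones, and its log2 fold change was 0.01 (95% interval -0.46 to 0.48). In Sst-like nuclei Npy stood at 42.5 and 50.0 CPM, against 92.1 and 39.5 CPM. In Vip-like nuclei Npy was higher in both pregnant mice, at 21.0 and 18.0 CPM, against 16.1 and 15.5 CPM, on 20 to 24 UMIs a library. Its log2 fold change there was 0.27 (-0.43 to 0.97). Vip-like nuclei had 34.4% of all genes without overlap.

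Crhbp in Sst-like nuclei stood at 54.9 and 48.6 CPM in the pregnant replicates, against 67.5 and 31.2 CPM in the non-pregnant ones. In Pvalb-like nuclei Crhbp stood at 20.6 and 19.2 CPM, against 23.8 and 21.9 CPM. Both pregnant mice were lower there, by a log2 fold change of -0.19 (95% interval -0.56 to 0.18). Tac1 in Pvalb-like nuclei stood at 20.6 and 23.8 CPM, against 29.3 and 12.6 CPM. Cort in Pvalb-like nuclei stood at 13.7 and 17.2 CPM, against 33.5 and 9.58 CPM. In Sst-like nuclei Cort stood at 8.09 and 11.2 CPM, against 20.3 and 0.760 CPM, the last on 2 UMIs, and its 95% interval ran from -5.45 to 5.40. For Crhbp in Sst-like nuclei, Tac1 and Cort the non-pregnant mice enclosed the pregnant ones.

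**Figure D5:**
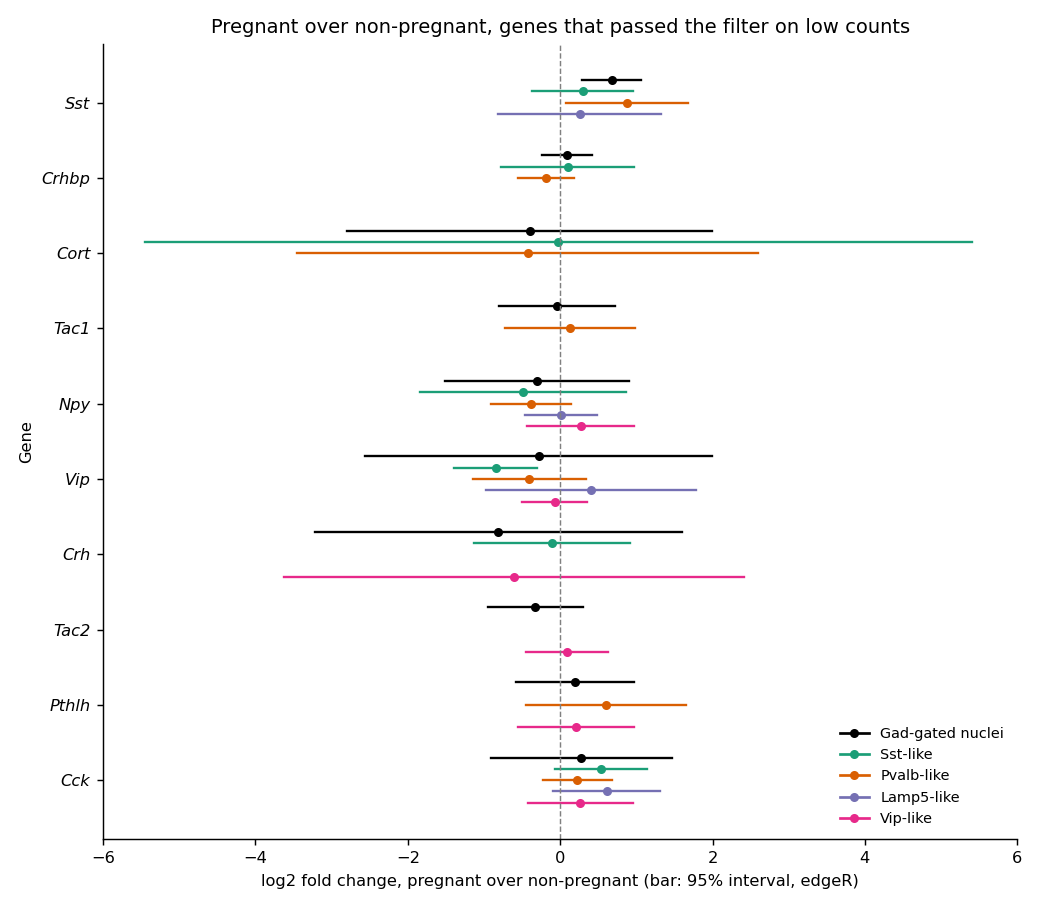
Log2 fold change (pregnant over non-pregnant) by edgeR and its 95% interval (horizontal axis) for each gene, in gated nuclei and in the interneuron-like types where the gene passed the filter on low counts (colours). The interval of Sst in gated nuclei runs from 0.29 to 1.07 and lies to the right of 0; those of Cort, Crh and Vip in gated nuclei are the widest there.

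Whether the difference between pregnant and non-pregnant mice itself differed between types was tested for each gene in each of the 4 interneuron types against the mean of the others. None of the 40 tests passed an adjusted p of 0.05 by edgeR, and 5 had an unadjusted p below 0.05. Of all 12234 genes tested, 9 were called for Lamp5-like, 3 for Pvalb-like, 12 for Sst-like and 1 for Vip-like nuclei. Without non-pregnant replicate 1, Cort in Sst-like nuclei passed, but the share of all genes called in that fit was not computed.

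Shares of positive nuclei were compared at equal depth. With each gated nucleus thinned to 5000 UMIs, Sst was in 12.0% and 13.3% of nuclei of the pregnant replicates, against 9.97% and 6.57% of the non-pregnant ones, a difference of 4.36 percentage points. Unthinned, the shares of Sst were 25.8% and 24.8%, against 18.26% and 16.01%. The Wilson 95% intervals of the unthinned shares were 22.5% to 29.3% and 21.6% to 28.4% in the pregnant replicates, against 15.5% to 21.3% and 13.2% to 19.2% in the non-pregnant ones, and cover counting error only. Thinned shares of Vip were 11.8% and 14.8%, against 18.45% and 13.495%, and those of Crh 2.59% and 4.21%, against 7.59% and 3.46%. Of the 10 genes, 5 had the higher mean in the pregnant mice. In an exact two-sided permutation test of 2 against 2 libraries, p cannot fall below 0.333, which was the value for Sst.

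In 7 excitatory types, 33 combinations of a gene and a type passed the filter and none was called by edgeR or DESeq2. Of all genes tested, edgeR called 0.0725% in L2/3 IT-like, 0.0608% in L4/5 IT-like, 0.633% in L5 IT-like, 2.38% in L5 ET-like, 2.03% in L5/6 NP-like, 0.62% in L6 IT-like and 0.926% in L6 CT-like nuclei, and 1.86% over excitatory nuclei as 1 sum. Sst was higher in both pregnant mice than in both non-pregnant mice in 6 of the 7 types, all but L6 IT-like. The share of all genes whose groups did not overlap was 38.4% in L2/3 IT-like, 36.2% in L4/5 IT-like, 38.4% in L5 IT-like, 44.7% in L5 ET-like, 39.3% in L5/6 NP-like, 40.7% in L6 CT-like and 38.1% in L6 IT-like nuclei. Sst had an unadjusted p below 0.05 by edgeR in L5 ET-like, L5/6 NP-like and L6 CT-like nuclei. In L5 ET-like nuclei Sst stood at 2.45 and 3.94 CPM in the pregnant replicates, against 1.74 and 0.291 CPM in the non-pregnant ones, the last on 1 UMI (log2 fold change 1.61, adjusted p 0.193 by edgeR). Vip in L5 ET-like nuclei, with 2.33 and 2.40 CPM, against 8.97 and 2.04 CPM, was the fourth such case (-1.18, adjusted p 0.339 by edgeR). By DESeq2, 1 combination, Sst in L2/3 IT-like nuclei, had an unadjusted p below 0.05. Without non-pregnant replicate 1, edgeR called 8 combinations, 4 of Cck, 3 of Sst and 1 of Npy. They were in types where it then called 8.86% (L2/3 IT-like), 1.28% (L4/5 IT-like), 6.54% (L6 CT-like) and 3.16% (L6 IT-like) of all genes. Without non-pregnant replicate 2 it called 3, all of Vip, in types with 3.88% (L2/3 IT-like), 1.4% (L5 ET-like) and 0.856% (L5/6 NP-like) of all genes called.

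Cck in excitatory nuclei stood at 35.3 and 43.9 CPM in pregnant replicates 1 and 2, against 45.05 and 24.91 CPM in non-pregnant replicates 1 and 2. In L2/3 IT-like nuclei Cck stood at 45.7 and 53.8 CPM, against 51.2 and 29.4 CPM, and was read in 53.3% and 56.7%, against 53.4% and 46.8%, of nuclei. In L6 IT-like nuclei it stood at 56.1 and 61.1 CPM, against 69.7 and 38.1 CPM. In each of these sets non-pregnant replicate 2 was lowest and the groups overlapped. Cck in oligodendrocyte-like nuclei ran 47.8 and 84.9 CPM, against 69.6 and 30.4 CPM.

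Receptors of these peptides were read at low levels in gated nuclei. Of 17 receptor genes, 12 were tested there and none was called, with a median log2 fold change of 0.11 beside 0.00 for all genes tested. Cckbr, which binds cholecystokinin, averaged 10.1 ± 0.59 CPM in pregnant mice and 8.83 ± 1.92 CPM in non-pregnant mice (SD, n = 2 each, here and below). Crhr1, the main receptor of corticotropin-releasing hormone, averaged 7.20 ± 2.63 CPM and 4.14 ± 2.33 CPM. Npy1r and Npy5r, receptors of neuropeptide Y, averaged 9.85 ± 2.47 CPM and 6.86 ± 2.01 CPM in pregnant mice, against 8.38 ± 4.52 CPM and 5.40 ± 1.01 CPM in non-pregnant mice. Only 1 receptor was called in an interneuron type: Tacr1, which binds substance P, fell in Pvalb-like nuclei. It stood at 4.63 and 8.90 CPM in pregnant replicates 1 and 2, against 12.7 and 21.9 CPM in non-pregnant replicates 1 and 2. Its log2 fold change was -1.42 (SE 0.31, adjusted p 0.0392 by edgeR). Without pregnant replicate 1 the adjusted p by edgeR was 0.563, and without non-pregnant replicate 2 it was 0.334. With doublets kept the log2 fold change was -0.96 with an adjusted p by edgeR of 0.542, and DESeq2 gave no adjusted p.

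The 16 genes of peptide processing and secretory granules were all tested in gated nuclei and none was called, with a median log2 fold change of 0.05. Cadps, which primes dense-core vesicles for release, averaged 1502 ± 41.6 CPM in pregnant mice and 1620 ± 62.3 CPM in non-pregnant mice. Pam, which amidates peptides, averaged 806 ± 42.8 CPM and 807 ± 22.6 CPM, and Ptprn2, a granule membrane protein, 765 ± 1.52 CPM and 742 ± 7.06 CPM. Pcsk2, a convertase, averaged 250.3 ± 51.7 CPM and 199 ± 66.2 CPM.

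Of 27 other interneuron identity genes, 25 were tested in gated nuclei and none was called, with a median of -0.10. Erbb4 averaged 7693 ± 834 CPM in pregnant mice and 8307 ± 862 CPM in non-pregnant mice. Gad2 averaged 315 ± 5.77 CPM and 331 ± 7.26 CPM, Kcnc1 272 ± 2.74 CPM and 326 ± 8.20 CPM, and Reln 599 ± 12.9 CPM and 575 ± 44.9 CPM. Dlx6os1, a long RNA antisense to a homeobox gene of interneurons, fell in Pvalb-like nuclei, with 407 and 450 CPM in pregnant replicates, against 575 and 557 CPM in non-pregnant ones (log2 fold change -0.41, adjusted p 0.023 by edgeR). The log2 fold change was -0.38 without pregnant replicate 1, -0.40 without non-pregnant replicate 1 and -0.42 without non-pregnant replicate 2, with adjusted p of 0.125, 0.18 and 0.257 by edgeR. Whether the counting used strand is not stated in the labels, so reads of its partner cannot be told apart from its own. Grin3a, a subunit of NMDA receptors common in Sst interneurons, was not called in gated or Sst-like nuclei. Calls came in L5 IT-like and L6 CT-like excitatory nuclei, where edgeR called 0.633% and 0.926% of all genes. Over all nuclei Grin3a rose, with 79.2 and 76.2 CPM, against 52.3 and 55.3 CPM (0.52, adjusted p 0.0138 by edgeR). Its log2 fold change was 0.44 without pregnant replicate 1 and 0.58 without pregnant replicate 2, with adjusted p of 0.377 and 0.138 by edgeR.

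Calls of 2 identity genes rested on few nuclei. Adarb2 fell in Sst-like nuclei, with 45.2 and 61.6 CPM in pregnant replicates, against 175 and 174 CPM in non-pregnant ones (log2 fold change -1.72, adjusted p 1.2e-07 by edgeR). Only 8 and 7 nuclei held it, against 10 and 13. With doublets kept the log2 fold change was -2.67 with an adjusted p by edgeR of 0.815, and at resolution 2 it was -2.12 with an adjusted p of 0.447. Sox6 rose in Lamp5-like nuclei, with 27.2 and 30.0 CPM, against 3.37 and 4.09 CPM (2.89, adjusted p 0.00241 by edgeR). It was held by 2 and 2 nuclei, against 2 and 1, and DESeq2 did not call it (2.92, adjusted p 0.281).

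Other neuropeptide genes of cortex showed the same lack of calls in gated nuclei, where 8 of 11 were tested with a median log2 fold change of -0.09. Pnoc, the precursor of nociceptin, averaged 10.9 ± 2.52 CPM in pregnant mice and 12.5 ± 4.00 CPM in non-pregnant mice. Penk, the precursor of enkephalins, averaged 4.46 ± 0.58 CPM and 3.21 ± 0.46 CPM. Pdyn, the precursor of dynorphins, averaged 5.11 ± 0.61 CPM and 5.06 ± 0.03 CPM, and Nmb, the precursor of neuromedin B, 2.84 ± 0.94 CPM and 3.67 ± 0.03 CPM. Grp, the precursor of gastrin-releasing peptide, was called over excitatory nuclei as 1 sum, beside 1.86% of all genes. It rose over all nuclei, with 1.66 and 2.31 CPM in pregnant replicates, against 1.04 and 0.850 CPM in non-pregnant ones (1.05, adjusted p 0.0458 by edgeR). Its log2 fold change was 1.23 without pregnant replicate 1 and 0.84 without pregnant replicate 2, with adjusted p of 0.307 and 0.358 by edgeR. With the unnamed clusters left out it was 0.92 with an adjusted p of 0.0699 by edgeR.

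The genes most like each of the 10 were sought by the Pearson correlation of log2(CPM + 1) over 37 clusters of at least 50 nuclei, among 14982 genes. Clusters share their libraries and differ in depth, so these are descriptions. Vip was most like Htr3a, the serotonin receptor gene of caudal interneurons (r = 0.832), then Tac2 (0.817) and Crh (0.814). Crh was most like Grpr, the receptor of gastrin-releasing peptide (0.843), then Asic4 (0.818). Tac2 was also like Htr3a (0.695) and Npy2r (0.692). Crhbp and Cort were both most like Lhx6 (0.854 and 0.823) and were like each other (0.793). Crhbp was also like Tmem132c (0.794) and Cort like Mageb18 (0.818).

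Npy was most like Slc32a1, the vesicular GABA transporter (0.775), Tent5a (0.771) and Gad2 (0.723). Tac1 was most like Tmem132cos (0.741), Lrrc38 (0.711) and Lhx6 (0.682), and Pthlh like Cenpa (0.756), Mybpc1 (0.731) and Slc5a7, the choline transporter (0.717). For Sst the 3 nearest genes, Pes1, Msantd4 and Ppie, reached 0.687 to 0.703 and peaked in the shallow cluster 16. Sst itself stood at 71.1 ± 33.3 CPM in that cluster, above its level in the gate. Cck peaked in cluster 16, with 182 ± 100.0 CPM, and was like Ubtf (0.821) and Prpf39 (0.798).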

How the data were processed

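The authors deposited raw UMI counts per gene and barcode, made with Cell Ranger 10.0.0 on GRCm39 per the submitters' processing notes. Nuclei with at least 500 genes and at most 5% mitochondrial UMIs were kept, and the 5% of each library most like simulated doublets were left out. Clusters came from 2000 variable genes, 40 components and Leiden resolution 1 (resolution 2 as an alternative), without the 10 genes. Free RNA was not subtracted. Counts were summed per library and tested with edgeR 4.0.16 (quasi-likelihood, robust, TMM, minimum count 10), with Benjamini-Hochberg adjustment over all genes. DESeq2 1.42.0 was an alternative, and the tests were tried on simulated data. Gene members and lists were chosen with earlier results of these data known. Named genes were all 10, related genes called or among the 4 highest of a list, the 3 genes most like each, and the 5 highest and 3 lowest pairs. A result under this rule is not reported here. Gene level differences rest on 2 mice per group, and depth ranged from 97875766 to 116860425 UMIs.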

Additional observations from a re-analysis of the deposited data

How the results depend on the processing

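Counts of the 10 genes called were 0 in all nuclei, gated nuclei, interneuron types and excitatory types, and stayed 0 under DESeq2 and with doublets kept. Without a filter on low counts, 1 was called in gated nuclei (Sst, beside 1.05% of all genes) and 1 in excitatory types. The latter was Sst in L2/3 IT-like nuclei, beside 1.68% of all genes there. Combinations of a related gene and a set of nuclei that were called were then 13 in place of 6. The share of all genes called also rose in the sets where related genes were tested, to between 0.141% in Lamp5-like and 1.88% in all nuclei. A gate of 5 UMIs called 1 (Sst), beside 0.186% of all genes. Deviations of same-numbered mice correlated at -0.02 in all nuclei and -0.14 in gated nuclei. This shows no pairing by replicate number over all genes but cannot exclude it for some of them. With the replicate number as a block none of the 10 was called, beside 3.51% of all genes in all nuclei and 0.205% in gated nuclei. Under that block Tac1 in gated nuclei turned to 0.016 and Cort in Sst-like nuclei to 0.18. Crossed pairing, chosen after seeing the data, called 2 in gated nuclei, beside 1.58% of all genes, and 11 combinations of a related gene and a set. It called none of the 10 in all nuclei, beside 0.45% of all genes. Cort in Sst-like nuclei was 0.12 under it and 0.10 with doublets kept. Tac1 in gated nuclei was 0.16 with low Slc17a7 required and 0.10 in named inhibitory nuclei only, also chosen after seeing the data. Npy in Lamp5-like nuclei, near 0 throughout, was -0.032 without the filter, -0.033 with doublets kept and -0.034 at resolution 2. The cause of these moves was not tested.

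Leaving out 1 mouse moved most. Counts called over types, and those of related genes, are of combinations of a gene and a set of nuclei. The genes called ranged from 0 to 6 in all nuclei, 1 to 4 in gated nuclei, 0 to 4 in interneuron types and 0 to 8 in excitatory types. The share of all genes called in these fits moved too, from 0 to 8.67% in all nuclei, 0.703% to 3.75% in gated nuclei, 0.0756% to 1.63% in interneuron types and 0 to 8.86% in excitatory types. Related genes called ranged from 8 to 40, interaction calls from 0 to 1, type shares called from 0 to 1, genes with a higher share in pregnant mice from 3 to 8, and pairs with a ratio above 1 from 18 to 20. Log2 fold changes in gated nuclei ranged from -0.091 to 0.76 for Cck, -0.999 to 0.59 for Cort, -0.13 to 0.28 for Crhbp, -0.66 to 0.17 for Npy, -0.21 to 0.73 for Pthlh, -0.48 to 0.58 for Tac1 and -0.74 to 0.37 for Vip. Sst kept its sign there, from 0.40 to 1.02, as did Crh, from -1.501 to -0.12, and Tac2, from -0.74 to -0.02. In Lamp5-like nuclei the range was -0.32 to 0.44 for Npy, -0.068 to 0.68 for Sst and -0.72 to 1.85 for Vip. In Pvalb-like nuclei it was -0.13 to 0.53 for Cck, -1.11 to 0.66 for Cort, -0.78 to 0.087 for Npy and -0.40 to 0.80 for Tac1. In Sst-like nuclei it was -1.05 to 3.56 for Cort, -0.70 to 0.74 for Crh, -0.36 to 0.71 for Crhbp, -0.98 to 0.20 for Npy and -0.09 to 0.77 for Sst. In Vip-like nuclei it was -0.27 to 1.20 for Cck, -1.30 to 0.32 for Crh, -0.11 to 0.64 for Pthlh, -0.068 to 0.20 for Tac2 and -0.40 to 0.34 for Vip. Log2 ratios of type shares ranged from -0.17 to 0.082 for Pvalb-like and -0.33 to 0.034 for Vip-like nuclei. Pthlh rested on 17 to 34 UMIs per gated library.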
